A study of Mus musculus with 2 samples.

Results

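The clustered histone genes of the mouse were followed in spleen RNA. They were taken as the rows of the deposited gene table whose symbol begins with Hist and a digit, which gave 64 of 22216 genes. By symbol, 6 encode linker histone H1, 16 H2A, 17 H2B, 12 H3 and 13 H4. Hist3h2bb-ps and Hist2h3c2-ps, pseudogenes by symbol, are counted in their class. The annotation used below, GENCODE M21, lists the second as Hist2h3c2 with a coding sequence of 411 bases. The Hist1 cluster on chromosome 13 holds 51 of them, Hist2 on chromosome 3 holds 9, Hist3 on chromosome 11 holds 3, and Hist4h4 stands alone on chromosome 6.

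Spleen RNA of NOD.g7 and NOD.L7 mice was sequenced, with 1 library per genotype, each made from the pooled spleens of 3 mice. NOD stands for non-obese diabetic, a strain used as a model of autoimmune diabetes. Age, sex and treatment are not given in the labels, nor is the meaning of g7 or L7, and no allele other than the genotype name is listed. The deposited columns are named NOD and NOD.LC7, and the first was taken as NOD.g7 and the second as NOD.L7. With 1 library per genotype the spread between mice cannot be measured, so every difference below is a difference between these 2 libraries and carries no p-value.

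Core histones H2A, H2B, H3 and H4 form the spool on which DNA is wound, and H1 binds the DNA that links one spool to the next. Genes in the histone clusters are transcribed mainly during S phase, and their messenger RNA usually ends in a conserved stem-loop, bound by the stem-loop binding protein SLBP, in place of a poly(A) tail. Many replacement histones, encoded outside the clusters, such as H3.3, are made throughout the cell cycle from polyadenylated messages, whereas H2afx also gives a stem-loop message and Cenpa is made mainly in G2. In the spleen, dividing lymphocytes and red cell precursors are the usual sources of cell-cycle transcripts.

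Because the members' 3′ ends bear on whether a library captures them, the stem-loops in their annotated transcripts are shown first, read from GENCODE M21 (GRCm38) as DNA letters, 5′ to 3′. Paired stem bases are in capitals and loop bases in lower case. Only the longest annotated transcript of each member was searched, and it held such an element for 43 of the 64. Shorter transcripts were not searched. The 5 forms found in more than 1 member were these, named by a gene that carries each:
Hist1h1c: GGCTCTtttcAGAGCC
Hist1h4d: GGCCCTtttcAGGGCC
Hist1h3e: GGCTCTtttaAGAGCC
Hist1h4i: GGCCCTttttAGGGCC
Hist1h4j: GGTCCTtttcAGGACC
The first form was found in 23 members of classes H1, H2A, H2B and H3, and the second in 7 members, all of class H4. The third form was found in 6 members, and the remaining ones in 2 members each. Hist2h2ac, Hist1h3g and Hist1h4a each carried a form of their own.

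Members also resemble each other within a class, which bears on how reads can be assigned to them. For each class, the 50-base stretch of coding sequence held by the most members is shown, from the same annotation:
H1: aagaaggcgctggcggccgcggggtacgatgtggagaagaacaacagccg
H2A: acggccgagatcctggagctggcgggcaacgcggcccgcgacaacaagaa
H2B: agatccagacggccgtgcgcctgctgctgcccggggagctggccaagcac
H3: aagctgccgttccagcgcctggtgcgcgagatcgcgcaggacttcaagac
H4: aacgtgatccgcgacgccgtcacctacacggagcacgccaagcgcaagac
The H3 stretch was held without a mismatch by 12 of 12 H3 members, the H2A stretch by 14 of 16, the H2B stretch by 13 of 17 and the H4 stretch by 11 of 13. Of the 6 H1 members, 3 (Hist1h1c, Hist1h1d and Hist1h1e) held the H1 stretch. These stretches are 50 bases long, shorter than the 100-base reads assumed below, and shares at both lengths are given further on. A read that lies wholly in sequence shared by several members has several equally good places of origin. How the authors treated reads of that kind is not given in the sources used here. Levels of single members are therefore uncertain.

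Levels were low. The values are RPKM, in which reads are divided by the length of the gene and the size of the library, so that it can be compared between genes of different length. The median member was at 0.197 in NOD.g7 against 0.218 in NOD.L7, beside 0.875 and 0.927 over all rows. Of the 64 members, 54 were above 0 in both libraries. Hist1h2ao, Hist1h2af, Hist1h1t and Hist1h3b were listed at 0 in both, while Hist1h2bp, Hist1h4f, Hist1h2ad and Hist1h2aa were listed at 0 in NOD.g7 only and Hist1h2ag and Hist1h2ba in NOD.L7 only. Hist1h1t, Hist1h2aa and Hist1h2ba are known as testis histones. In either library or both, 15 members and 11141 of all rows reached an RPKM of 1, and these genes are called kept below. Closest below that limit were Hist1h4j, at 0.264 in NOD.g7 against 0.988 in NOD.L7, and Hist1h4c, at 0.866 and 0.954. By mean RPKM the lowest kept members were Hist1h4n and Hist3h2ba.

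**Figure D1:**
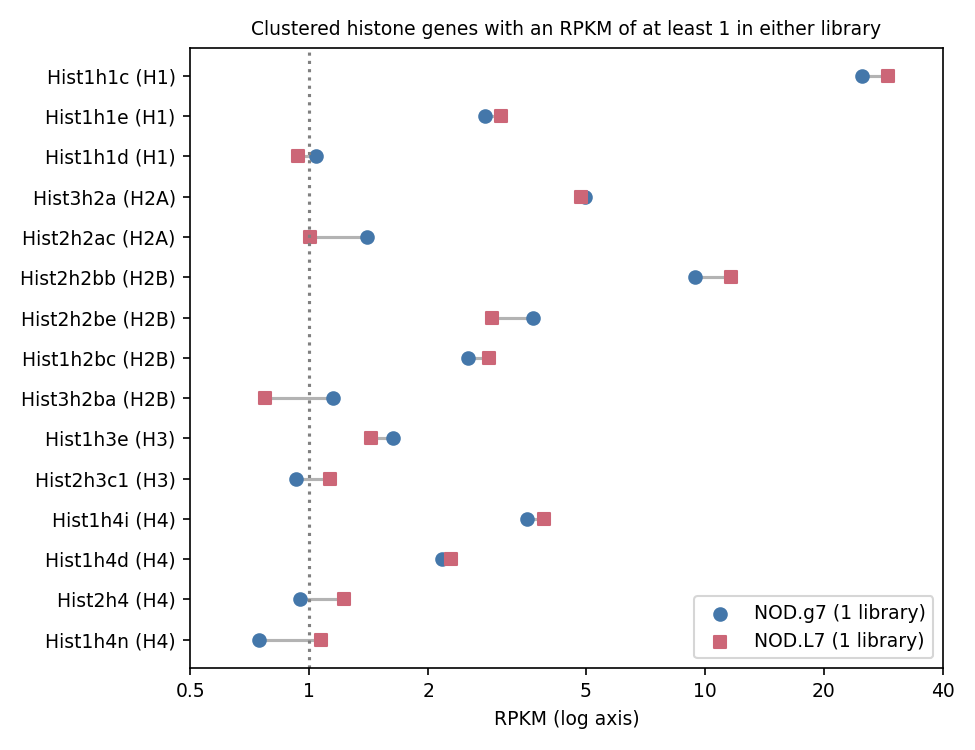
RPKM of the 15 kept members (horizontal log axis) in the NOD.g7 library (circles) and the NOD.L7 library (squares), grouped by histone class, with a dotted line at an RPKM of 1. Hist1h1c stands highest at 25.01 and 29.1, and the 2 values of most genes lie close together.

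Among the linker histones, Hist1h1c, which encodes H1.2, was the most abundant member of all, at 25.01 RPKM in NOD.g7 against 29.1 in NOD.L7. It lies on chromosome 13 from 23830676 to 23832236 in mm9, the build of the table, and exceeded 87.3% and 89.3% of all rows in the 2 libraries. Hist1h1e, which encodes H1.4, was at 2.78 and 3.05. Hist1h1d, which encodes H1.3, was at 1.04 and 0.938. The other linker genes were lower: Hist1h1a was at 0.512 and 0.354, Hist1h1b at 0.376 and 0.543, and the testis gene Hist1h1t was listed at 0.

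Of the H2A genes, 2 of 16 were kept. Hist3h2a was at 4.99 RPKM in NOD.g7 against 4.87 in NOD.L7, and Hist2h2ac at 1.40 and 1.01. The remaining 14 lay between 0 and 0.463 in NOD.g7 and between 0 and 0.374 in NOD.L7. Hist2h2ab, next to Hist2h2ac, set the upper end in NOD.g7 at 0.463 and was at 0.0627 in NOD.L7, from 16.6 and 2.98 reads' worth of sequence.

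The H2B class had 4 kept genes of 17. Hist2h2bb, on chromosome 3 from 96073623 to 96074115, was the second most abundant member at 9.47 RPKM in NOD.g7 against 11.7 in NOD.L7. Hist2h2be was at 3.67 and 2.90, Hist1h2bc at 2.51 and 2.85, and Hist3h2ba at 1.15 and 0.774. Hist2h2bb and Hist1h2bc were thus higher in NOD.L7, and Hist2h2be and Hist3h2ba lower. In GENCODE, Hist2h2bb overlaps the genes Gm20628 and Gm42743. Strand use in the counting is not given, and reads from the overlap cannot be told apart here. Among the kept members, Hist3h2a, Hist1h1e, Hist2h2ac and Hist2h3c1 also overlap another annotated gene.

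In class H3, Hist1h3e was at 1.63 RPKM in NOD.g7 against 1.43 in NOD.L7, and Hist2h3c1 at 0.926 and 1.13. The other 10 H3 members were below 0.5. In class H4, Hist1h4i was at 3.56 and 3.91, Hist1h4d at 2.17 and 2.29, Hist2h4 at 0.948 and 1.23, and Hist1h4n at 0.744 and 1.07. Hist2h4 and Hist1h4n passed the filter through NOD.L7 alone, so their direction was set by it. Of all 13 H4 members, 8 were higher in NOD.L7 and 5 lower, Hist1h4k and Hist1h4h among the lower ones. Hist1h4n is an uncertain value, since 100% of its 50-base windows occur in transcripts of other genes.

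Between the libraries the kept members differed little. Log2 ratios are of NOD.L7 over NOD.g7 with a pseudocount of 1 added to both RPKM values, and this addition makes the change of low genes look smaller. Over the 15 kept members it ran from −0.28 to 0.28 with a median of 0.10, beside a median of 0.02 over all kept genes. None of the 15 reached an absolute log2 ratio of 1, the size called here, which 79 of 11141 kept genes (0.709%) reached. None reached 0.5, which 457 kept genes (4.1%) reached. Of the 15, 9 were higher in NOD.L7 and 6 lower. That is 60.0% higher, near the 56.2% of all kept genes that were higher, and is no result about the histone genes.

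By class, the median log2 ratio of the kept members was 0.10 for H1 (2 higher, 1 lower), −0.14 for H2A (0 higher, 2 lower), −0.06 for H2B (2 higher, 2 lower), 0.02 for H3 (1 higher, 1 lower) and 0.15 for H4 (4 higher, 0 lower). Members that reached an RPKM of 1 in a single library had to be higher there: Hist1h4n, Hist2h4 and Hist2h3c1 in NOD.L7, and Hist3h2ba and Hist1h1d in NOD.g7. Nothing is therefore read from these counts, and without the filter the H4 median was 0.05. Over all members, kept or not, the numbers higher and lower were 3 and 2 for H1, 6 and 8 for H2A, 10 and 7 for H2B, 7 and 4 for H3, and 8 and 5 for H4. The sign for H2B changed to positive without the filter (0.00) and with a filter at an RPKM of 5 (0.28), and that for H3 fell to −0.00 when the median of all kept genes was set to 0. The largest ratios were 0.28 for Hist2h2bb, 0.25 for Hist1h4n and 0.21 for Hist1h1c on the higher side, and −0.28 for Hist3h2ba and −0.26 for Hist2h2be and Hist2h2ac on the lower side.

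The depth behind these values was worked out from their steps. For short single-exon genes that are no members, multiplying a low RPKM by gene length gave a whole number of sequenced bases, within 0.15 of a whole number, for 100% of 144 values of NOD.g7 and of 161 values of NOD.L7, the values from which the depth was found. The steps correspond to 9.13 Gb of mapped sequence in NOD.g7 and 12.1 Gb in NOD.L7. Checked on the histone genes, 36 of 37 low values in NOD.g7 and 31 of 32 in NOD.L7 came out whole. The bases assigned could be worked out for 59 members. Of these, 25 had less than 10 reads' worth of 100 bases in each library, and 9 had at least 100 in either.

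From these bases, taken as fragments of 200 bases, a 95% exact binomial (Clopper-Pearson) interval was set on each fold, NOD.L7 over NOD.g7. It covers counting error only, and not the spread between mice or preparations. Of the 59 members, 29 had at least 10 fragments over both libraries. The interval lay above 1 for 4 of them, below 1 for 1, and held 1 for 24. The share that left out 1 was 17.2%, near the 15.9% (10 of 63) of other single-exon genes, and is no result about the histone genes as a set. Of those other genes, 4.76% lay above 1 and 11.1% below.

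**Figure D2:**
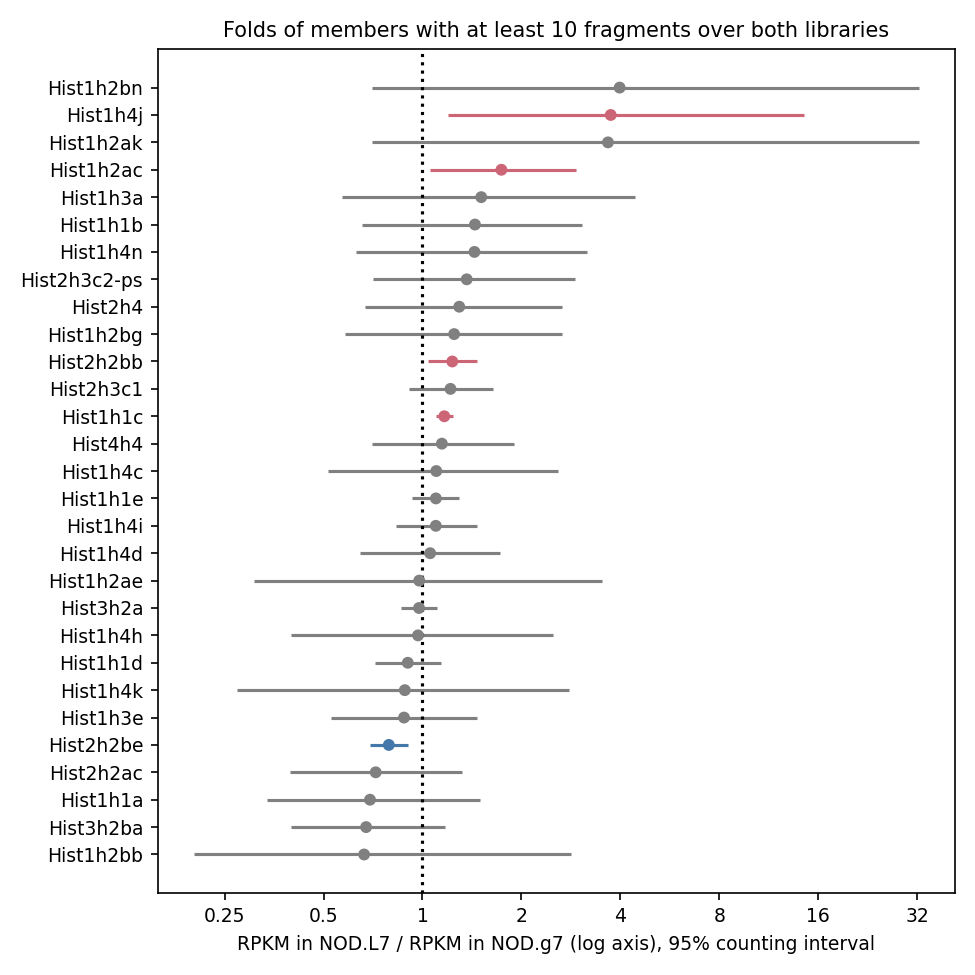
Fold of RPKM, NOD.L7 over NOD.g7 (horizontal log axis), of the 29 members with at least 10 fragments over both libraries, with 95% counting intervals as lines. Intervals above 1 (Hist1h4j, Hist1h2ac, Hist2h2bb and Hist1h1c) are red, the interval below 1 (Hist2h2be) is blue and those that hold 1 are grey.

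Hist1h1c had the narrowest interval, from 3562 and 5498 reads' worth of bases: a fold of 1.17 (1.10 to 1.24). Hist2h2bb had a fold of 1.23 (1.04 to 1.47), and Hist2h2be a fold of 0.79 (0.691 to 0.902). Counting error alone thus leaves Hist1h1c and Hist2h2bb higher and Hist2h2be lower in NOD.L7, by less than 1.5 times. For Hist3h2a the fold was 0.976 (0.863 to 1.11) and for Hist1h1e 1.10 (0.93 to 1.30), both spanning 1. Intervals of the H4 genes were wide: 1.10 (0.833 to 1.47) for Hist1h4i, 1.06 (0.645 to 1.72) for Hist1h4d, 1.29 (0.668 to 2.66) for Hist2h4 and 1.44 (0.627 to 3.17) for Hist1h4n. No direction was resolved for any of the 4 at this depth. Hist3h2ba, at 0.674 (0.399 to 1.17), had an interval below 1 when each 100-base read was counted in place of a fragment, but not with fragments. With such reads 6 of the 29 intervals lay above 1 and 2 below, while 30.2% of the other single-exon genes left out 1 (17.5% above, 12.7% below).

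The low members held larger folds on few reads, in both directions. Of 39 that were not kept but above 0 in both libraries, 5 were at least 2 times higher in NOD.L7 and 4 at least 2 times lower. The same count was not made over all low genes, so these numbers are no result about the histone genes. The members named here were singled out after their values were seen. Hist1h4j, an H4 gene at chromosome 13, 21826965 to 21827276, rested on 7.52 and 37.3 reads' worth of bases and had a fold of 3.74 (1.19 to 14.5). Further along, from 21845304 to 21846372, lie Hist1h2ak and Hist1h2bn, an H2A and an H2B gene that start head to head. Hist1h2ak was at 0.102 and 0.374 RPKM, a fold of 3.67 (0.703 to 32.3), and Hist1h2bn at 0.10 and 0.400, a fold of 3.98 (0.703 to 32.3). Of 50-base windows, 67.7% for Hist1h4j, 86.4% for Hist1h2bn and 52.3% for Hist1h2ak occur in transcripts of other genes. With 100-base windows the shares were 60.1%, 52.1% and 10.5%, so these folds may not belong to single genes. Hist1h4k, between Hist1h4j and this pair, was at 0.470 and 0.415, a fold of 0.884 (0.273 to 2.80). Its interval overlapped those of Hist1h4j and the pair, so whether the larger folds extend over the whole stretch cannot be told. The interval of each gene of the pair held 1 with fragments and lay above 1 with 100-base reads. Hist1h2ac, at 0.211 and 0.367 RPKM, had a fold of 1.74 (1.05 to 2.92). On the lower side, Hist1h3f was at 0.105 and 0.00825 RPKM, a fold of 0.0789 (0 to 0.824) on 9.57 and 1.0 reads' worth of bases. For Hist2h2ab the fold was 0.136 (0.00213 to 0.704). Hist1h2an, at 0.125 and 0.0168, had a fold of 0.134 (0 to 4.02). These 3 genes had fewer than 10 fragments over both libraries and so were not among the 29. With no such minimum, 4 intervals lay above 1 and 3 below among 54 members, and for 164 other single-exon genes 7.32% left out 1 (2.44% above, 4.88% below).

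Summed over the 59 members, 83.4 bases per 1000000 mapped bases fell on clustered histone genes in NOD.g7 against 90.1 in NOD.L7, a fold of 1.08 (1.04 to 1.13). Hist1h1c alone supplied 46.8% and 50.5% of that sum. Without Hist1h1c the sums were 44.3 and 44.6, a fold of 1.01 (0.95 to 1.07), so the difference in the sum rested on that gene. By class the fold was 1.14 (1.08 to 1.20) for H1, and 1.02 (0.901 to 1.17) for H1 without Hist1h1c. It was 0.997 (0.89 to 1.12) for H2A, 0.933 (0.844 to 1.03) for H2B, 1.12 (0.901 to 1.39) for H3 and 1.17 (0.978 to 1.39) for H4. Only the H1 interval left out 1 among the 5 classes. The 45 members that were not kept had together a fold of 1.18 (0.996 to 1.40).

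**Figure D3:**
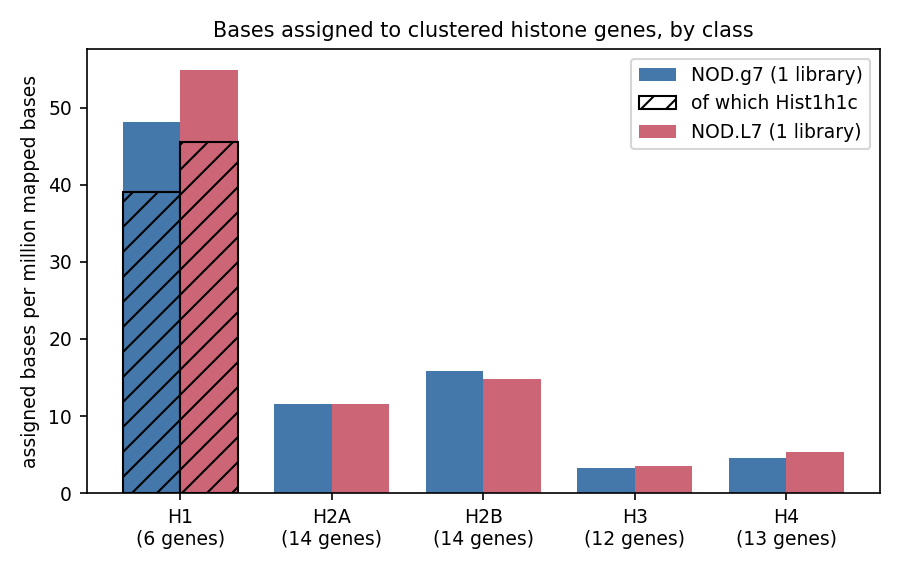
Bases assigned to the members per 1000000 mapped bases (vertical axis from 0), by histone class, in NOD.g7 (blue) and NOD.L7 (red), with the part from Hist1h1c hatched. H1 takes the largest part in both libraries, and most of it is Hist1h1c.

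Level went with the amount of sequence that members share. For each member, the share of its 50-base windows that also occur in annotated transcripts of other genes was computed. Over the 64 members this share and the mean RPKM had a Spearman correlation of −0.51 (−0.52 over the 58 core histone genes), given as a description across genes that are not independent and that share both libraries. Of 35 members with more than 50% of their windows shared, 3 were kept (Hist1h4n, Hist1h3e and Hist2h2ac), with a median of 0.102 RPKM in NOD.g7 against 0.120 in NOD.L7. Of the 29 others, 12 were kept, with medians of 0.463 and 0.467. The 3 members with the highest mean RPKM had little shared sequence: 8.54% of 50-base windows for Hist1h1c, 0% for Hist2h2bb and 2.0% for Hist3h2a. Genes whose exons overlap a member, as for Hist2h2bb and Hist3h2a, were left out of its share. A low share therefore does not make their reads unambiguous. For Hist2h2bb the share covers the annotated 381 bases only, while the table's span is 493 bases. Next in level came Hist1h4i with 28.9%, Hist2h2be with 0%, Hist1h1e with 8.24%, Hist1h2bc with 30.6% and Hist1h4d with 42.2%. With 100-base windows the correlation was again −0.51 over the 64 members. Then 26 members had more than 50% of their windows shared, and 1 of them, Hist1h4n, was kept, against 14 of the other 38. At that length the share was 9.97% for Hist2h2ac, 30.1% for Hist1h3e and 0% for Hist1h4d. Whether low values come from reads left unassigned was not tested.

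**Figure D4:**
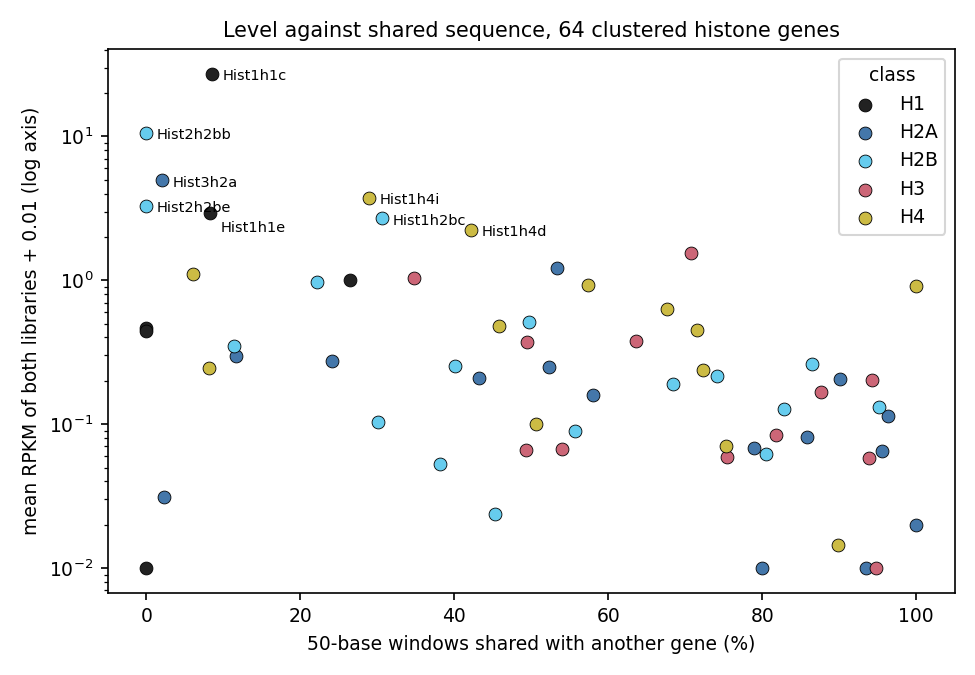
Mean RPKM of both libraries plus 0.01 (vertical log axis) against the percentage of 50-base windows found in transcripts of other genes (horizontal axis), 1 point per member, coloured by class. Members with a mean above 2 are named, and they lie on the left, at under 50% shared.

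Level also went with the annotated 3′ end. In 23 members the longest annotated transcript runs at least 100 bases past the stem-loop shown above. Of these, 10 were kept, among them Hist1h1c, Hist1h1e, Hist3h2a and Hist1h4i. The medians of the 23 were 0.448 RPKM in NOD.g7 against 0.774 in NOD.L7. Different genes set them, Hist1h2bg and Hist3h2ba, so they do not measure a change. The summed RPKM of the 23 was 47.5 and 53.2, and the median log2 ratio of the 10 kept was 0.08. For some of the 23, such as Hist1h3e and Hist1h4d, the table's span equals the coding length, so the longer 3′ end was not counted. This grouping is not independent of the shared share above, in which Hist1h1c, Hist1h1e and Hist3h2a were also low. In 20 members the transcript stops within 100 bases of the stem-loop, and 2 of these were kept (Hist2h2ac and Hist1h4n), with medians of 0.0954 and 0.0897. In another 17 members the longest transcript holds no stem-loop and ends at most 48 bases past the coding sequence. Of the 17, 1 was kept, Hist2h2bb, whose span of 493 bases is longer than its annotated 381 bases. No stem-loop was found in the remaining 4, which are Hist2h2be, with a long 3′ end, the 2-exon genes Hist1h2bc and Hist1h2bp, and the pseudogene Hist3h2bb-ps. Of these, Hist2h2be and Hist1h2bc were kept. The labels name a TruSeq RNA library but do not say whether poly(A) RNA was selected, so the part of RNA selection in these levels was not tested.

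H2A and H2B genes often lie head to head and share a promoter region. There were 11 such pairs by the table's coordinates, with starts 172 to 334 bases apart, and the H2B gene had the higher mean RPKM in 8 of them. Several pairs rest on few reads. Hist1h2ad had 0 and 0.95 reads' worth in NOD.g7 and NOD.L7, and its partner Hist1h2bf 1.79 and 2.39. Spans also differ within pairs, so nothing is read from that count. Both genes were kept in 1 pair, Hist2h2ac and Hist2h2be, whose gap is 276 bases. Each had a log2 ratio of −0.26, with a fold of 0.721 (0.396 to 1.32) for Hist2h2ac beside the 0.79 of Hist2h2be. The 250 bases before the start of Hist2h2ac, which fill most of that gap, are shown because the pair is read outward from them. They come from RefSeq, GRCm38.p6, chr3:96220881-96221130, minus strand, with matches on either strand in capitals to the CCAAT box, to the TATA box TATAAA and to the octamer ATTTGCAT:
Hist2h2ac: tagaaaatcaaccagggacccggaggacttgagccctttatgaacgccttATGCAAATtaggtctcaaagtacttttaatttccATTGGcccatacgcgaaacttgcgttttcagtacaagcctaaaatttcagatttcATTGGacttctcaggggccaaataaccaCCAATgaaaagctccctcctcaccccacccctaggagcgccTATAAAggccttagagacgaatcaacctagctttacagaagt
The stretch held 3 matches to the CCAAT box, 1 to the TATA box and 1 to the octamer, which POU factors such as the product of Pou2f1 bind.

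Those motifs were counted in the same way in the 250 bases before every RefSeq start, of which 59 belong to 58 members. CCAAT was present in 81.4% of the members' promoters and in 33.8% of all 32851 promoters. Within the classes it was found for 6 of 6 H1, 16 of 16 H2A and 15 of 15 H2B promoters, 8 of 10 of H3 and 3 of 12 of H4. TATAAA was present in 49.2% of the members' promoters and 12.4% of all. ATTTGCAT was present in 23.7% against 1.60%, in 7 H2A and 7 H2B promoters and in none of H1, H3 or H4. Promoters of head-to-head partners overlap, so these are not independent counts, and a match is not evidence of binding.

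The 9 kept replacement histones of the 16 listed, all encoded outside the clusters, stood above most cluster members. H3f3b and H3f3a, which both encode H3.3, were at 203 and 112 RPKM in NOD.g7 and at 175 and 99.2 in NOD.L7. H2afy (macroH2A1) was at 106 and 104, H2afv (H2A.V) at 23.2 and 21.9, H2afx (H2A.X) at 20.8 and 22.4, and H2afj (H2A.J) at 18.8 and 19.9. Cenpa, the centromeric H3, was at 14.1 and 11.6, H2afz (H2A.Z) at 9.69 and 8.69, and H1f0 (H1.0, a linker histone of non-dividing cells) at 7.74 and 10.2. Of these 9, 3 were higher and 6 lower in NOD.L7 (33.3% higher, beside 56.2% of all kept genes). Their median log2 ratio was −0.08, and none was at 0.5 or more in size. H1f0, at 0.35, had the largest ratio of them. The other 7 were low: H2afb1, H1foo, H1fnt and Hils1 were listed at 0 in both libraries, H2afy2 and H2afy3 were between 0.164 and 0.286 RPKM, and H1fx was at 0.310 in NOD.g7 against 0.966 in NOD.L7.

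Genes that make and handle histones had small ratios between the libraries. Of 17 genes for histone mRNA transcription and 3′ processing, 16 were kept, 14 higher and 2 lower (87.5% higher, beside 56.2% of all kept genes). Their log2 ratios ran from −0.07 to 0.11 with a median of 0.04. Npat, the coactivator of cluster transcription, was at 5.79 RPKM in NOD.g7 against 6.29 in NOD.L7, and Hinfp, a factor of H4 promoters, at 9.89 and 10.8. Slbp was at 25.5 and 27.4, and the octamer factor gene Pou2f1 at 9.43 and 8.94. Of 16 histone chaperone genes, 8 were higher and 8 lower, with Asf1b the most changed at 7.19 and 8.76. Nasp was at 15.4 and 16.7, Chaf1b at 4.90 and 4.46, and Nap1l1 at 27.8 and 25.7.

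Of 38 S phase and mitosis genes, all kept, 22 were higher and 16 lower in NOD.L7, and the median log2 ratio was 0.02. That is 57.9% higher, near the 56.2% of all kept genes. The largest ratios were those of the replication helicase gene Mcm2, at 18.9 RPKM in NOD.g7 against 23.5 in NOD.L7, and of cyclin gene Ccne1, at 6.29 and 5.19. Bub1 was at 1.19 and 1.52, and Top2a at 11.5 and 13.1. No gene of the processing, chaperone and S phase lists reached an absolute log2 ratio of 0.5.

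**Figure D5:**
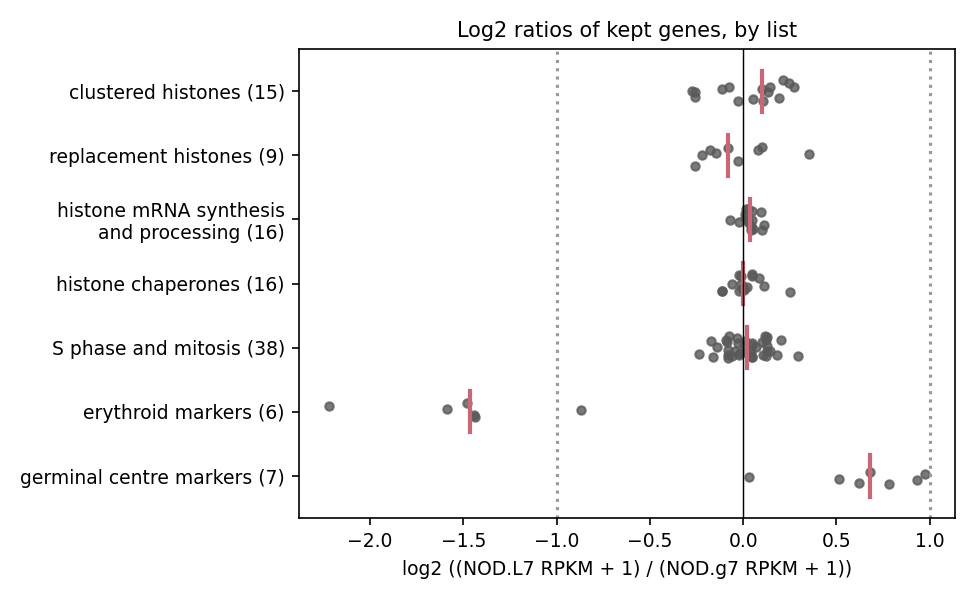
Log2 ratio of NOD.L7 over NOD.g7 with a pseudocount of 1 (horizontal axis), 1 point per kept gene, by list, with the list's median as a red bar and dotted lines at −1 and 1. Clustered histones lie between −0.28 and 0.28, the other histone and cell-cycle lists are centred near 0, the 6 erythroid markers lie between −2.22 and −0.87 and the 7 germinal centre markers between 0.03 and 0.98.

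Cell type markers did differ between the pooled spleens. Over all kept genes, 56.2% were higher in NOD.L7, 4.1% reached an absolute log2 ratio of 0.5 and 0.709% reached 1. The 6 erythroid markers found in the table were all lower in NOD.L7, 5 of them past the size called, with a summed RPKM of 101 in NOD.g7 against 39.2 in NOD.L7 and a median log2 ratio of −1.46. The 7 germinal centre markers were all higher, with sums of 45.8 and 58.4 and a median of 0.68, and none reached 1. Bcl6 was at 0.03 and the other 6 were past 0.5. B cell markers (6 of 6 lower, median −0.29, 0 past 1) and NK cell markers (5 of 5 lower, median −0.97, 2 past 1) were on the lower side, and monocyte and macrophage markers (6 of 6 higher, median 0.43, 2 past 1) on the higher side. T cell, neutrophil, plasma cell, megakaryocyte and stromal or endothelial lists had medians of 0.01, 0.03, 0.09, 0.17 and 0.03, the last over 2 kept genes. Single markers in them differed more: log2 ratios were 1.20 for Cxcr2 and 0.90 for Csf3r (neutrophils), −0.74 for Cd8a and 0.36 for Cd4 (T cells), 0.63 for Ppbp (megakaryocytes) and 0.52 for Igj (plasma cells). In whole spleen, fewer cells of a type and less RNA per cell cannot be told apart. The part of cell makeup in the histone values was not tested.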

How the data were processed

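Spleen RNA of 2 genotypes was sequenced, 1 library each from 3 pooled mice. The authors deposited 1 table with a symbol, coordinates and an RPKM value per library for each gene. Per the submitters' processing notes, the tools were CASAVA 1.8.2 and SAMtools 0.1.18 and the build was mm9. Not given in the sources used here are the aligner settings, the gene models, the use of strand and what was done with reads that match several places.

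Log2 ratios used a pseudocount of 1 and kept genes whose RPKM was 1 or more in at least 1 library. The text names every kept member (at most 6 per class by mean RPKM), all kept replacement histones, and up to 4 kept genes with the largest ratio of each histone-related list; single cell type markers and replacement histones that were not kept were named after their values were seen. The method was tested on simulated data. Sequences came from GENCODE M21 and RefSeq (GRCm38). For each member only the longest annotated transcript was used. The shared share left out genes whose exons overlap the member. It used the coding part or the whole of that transcript, whichever was closer in length to the table's span. Python 3.11.15, pandas 2.3.3, scipy 1.17.1 and matplotlib 3.10.9 were used.

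Members and lists were chosen with earlier results of these data known. The way to the depth, the 200-base fragment, the minimum of 10 fragments, the definition of shared windows, the 3′ end categories the promoter motifs and the size of a change counted as no move were settled after values were seen.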

Additional observations from a re-analysis of the deposited data

How the results depend on the processing

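No kept member reached an absolute log2 ratio of 1 as reported or under any of the 7 alternatives to the log2 analysis. Smaller pseudocounts were tried on the 15 kept members only. With no filter the pseudocount stayed at 1, so members below an RPKM of 1 in both libraries could not reach that size. Without a filter, 34 of 60 members above 0 in either library were higher in NOD.L7; with a filter at an RPKM of 5, 2 of 2 were. Across the pseudocounts, filters, scalings and shared-sequence limits tried, the median log2 ratio of the kept members lay between 0.02 and 0.24. It lay between 0.08 and 0.21 for H1, −0.23 and −0.01 for H2A, and 0.05 and 0.24 for H4. It changed sign for H2B (−0.08 to 0.28) and H3 (−0.00 to 0.14). A move of under 0.42 in log2, the median half-width of the counting intervals, was taken as no move, which is wide beside these medians, so little stability can be read from them. With 100-base reads in place of fragments, a choice added after seeing the data, 6 intervals lay above 1 and 2 below; with no minimum of fragments, also added later, 4 lay above and 3 below. No paired analysis was possible because there is only 1 library of each genotype, and no replicate could be left out. Depth limits many members: 25 of the 59 with known bases had less than 10 reads' worth in each library. Of the 29 with at least 10 fragments, 24 had counting intervals that held 1. Such an interval can be wide from few reads or narrow around 1, as for Hist3h2a (0.863 to 1.11).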

Other observations

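The table's gene models bear on some members. The span given for Hist1h2ao is 23209 bases long and covers Hist1h4m and Hist1h4n, and the span of Hist2h2aa1 is 6400 bases, both far longer than a histone coding sequence. For 30 members the span equals the coding length, so reads from beyond the coding sequence were not counted for them. Bases could not be worked out for Hist1h2ao, Hist1h2bc, Hist1h2be, Hist1h2bp and Hist2h2aa1. The value of 1 checked member in each library was not a whole number of bases, and the cause was not tested.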
